A study of Bos taurus with 6 samples.

Results

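The mitochondrial ribosomal protein genes were taken as every row of the expression table whose symbol is MRPL or MRPS followed by a digit. This rule gave 76 of the 36075 rows. Of these, 48 rows belonged to the large subunit (MRPL, 47 symbols, since MRPL33 is listed under 2 identifiers) and 28 to the small subunit (MRPS). Each row was compared between blastocysts of the control group (3 libraries) and blastocysts of the MT-treated group (3 libraries), whose oocytes had matured in medium with added melatonin (MT). Embryos of both groups were bovine, came from oocytes of slaughterhouse ovaries and were matured, fertilized and cultured in vitro, and each library was made from several pooled blastocysts. Animals that gave the oocytes are not named, so the p-values measure the spread between these pools.

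The mitochondrial ribosome translates the few mRNAs of the mitochondrial genome, all of which code for parts of the respiratory chain and of ATP synthase. Its RNAs are made inside the mitochondrion, whereas its proteins are encoded in the nucleus, made in the cytosol and imported. The small subunit reads the mRNA and the large subunit joins the amino acids. Part of the proteins have counterparts in the bacterial ribosome and the rest are found only in mitochondria.

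Values are TPM, the usual length-scaled unit of transcript abundance, which scale reads by transcript length and by library and therefore allow levels to be compared between genes, but keep no record of depth. Control libraries listed 8854 to 8953 genes above 0 and MT-treated libraries 14372 to 14408, so the groups differed over the whole transcriptome. The epithelial keratins KRT8 and KRT18 and the pluripotency factor POU5F1 were present in all 6 libraries, with POU5F1 at 188 to 191 TPM in control and 191 to 194 TPM in MT-treated libraries. The trophectoderm factors TFAP2C at 22.2 to 22.6 TPM and GATA3 at 18.4 to 20.25 TPM were also present in control libraries. CDX2 (trophectoderm), NANOG (inner cell mass), SOX17 and PDGFRA (hypoblast) were listed at 0 in every control library, and SOX17 was under 1 TPM in MT-treated libraries too. CDX2 lay at 15.0 to 17.2 TPM in MT-treated libraries, and the summed hypoblast markers lay at 0.2 to 0.44 TPM in control and at 53.5 to 57.5 TPM in MT-treated libraries. Of 7 listed cumulus and granulosa markers, 5 were under 1 TPM throughout, whereas CYP11A1 at 77.55 to 84.05 TPM and FSHR at 15.0 to 19.2 TPM were present in all 6 libraries. All 7 oocyte markers were under 1 TPM. The part of these marker and detection differences in the results below was not tested, and in pooled embryos fewer cells of a type and less RNA per cell cannot be told apart. A difference between the groups in library making or processing could not be told apart from the treatment either.

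All 76 rows reached 1 TPM in at least 3 libraries and were tested with limma on log2(TPM + 1) among 11953 genes. Of the 76, 38 were higher in MT-treated blastocysts and 33 were lower at an adjusted p under 0.05, and 5 did not pass. As a share, 50.0% of the rows were higher and 43.4% lower, beside 61.6% and 34.1% of all genes tested. On the log2(TPM + 1) scale, a difference of at least 2-fold was reached by 16 rows upwards and 9 downwards, which is 21.1% and 11.8%, beside 51.0% and 19.6% of all genes tested. MRPS10, MRPS18A and MRPS33 just missed it on this scale, although the ratios of their mean TPM were 2.01, 2.01 and, downwards, 2. The median log2 fold change was 0.08 over the 76 rows and 1.12 over all genes tested. Its order depended on the scaling, with 0.26 and 0.04 after quantile normalization, 1 of the scalings compared below. The median size of the change, regardless of sign, was 0.55 for these rows and 1.98 for all genes tested.

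The picture differed among genes present in both groups, since 6 of the 76 rows and many of all genes tested were under 1 TPM in every control library and passed the filter through the MT-treated group alone. Of the 70 rows that reached 1 TPM in all 6 libraries, 32 were higher (45.7%) and 33 lower (47.1%), beside 36.4% and 55.6% of the 5988 genes tested that did so. A 2-fold difference was reached by 10 of these rows upwards (14.3%) and 9 downwards (12.9%), beside 15.7% and 27.2% of the 5988 genes. The median log2 fold change was -0.02 over the 70 rows and -0.27 over the 5988 genes, and the median size of the change was 0.51 and 0.83. These values hold for TPM as deposited, and counts under other scalings are given further below.

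The control and MT-treated values of 71 of the 76 rows did not overlap, which is 93.4% beside 96.1% of all genes tested. Libraries of 1 group were nearly alike, with a median coefficient of variation over the 70 rows that reached 1 TPM in all 6 libraries of 2.48% in control and 2.40% in MT-treated libraries. Small differences could therefore pass the test, such as a ratio of means of 1.07 for MRPL12 and 0.93 for MRPS6. Across the 76 rows the log2 values correlated at 0.999 to 0.9995 (Pearson) between control libraries and at 0.570 to 0.582 between libraries of different groups, as a description over genes of the same libraries. Between groups the correlation was 0.691 to 0.714 over the 70 rows that reached 1 TPM in all 6 libraries, beside 0.757 to 0.759 over the 5988 genes that did so, and 0.544 to 0.546 over all genes tested.

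In the large subunit, 22 of 48 rows rose, 22 fell and 4 did not pass, and the median log2 fold change was 0.02. Of the 22 that rose, 9 reached 2-fold, and of the 22 that fell, 5 did. In the small subunit, 16 of 28 rows rose, 11 fell and 1 did not pass, with a median of 0.36. There 7 of the rows that rose and 4 of those that fell reached 2-fold. Of the small subunit rows that rose, 4 were under 1 TPM in every control library. Without them, 12 rose and 11 fell, 3 and 4 of them by 2-fold, with a median of 0.05. Without the 2 such rows of the large subunit, 20 rose and 22 fell, 7 and 5 of them by 2-fold. Beside the counts over all rows stand 61.6% higher and 34.1% lower of all genes tested, and 51.0% and 19.6% by 2-fold. Beside the counts without these rows stand 36.4% and 55.6% of the 5988 genes that reached 1 TPM in all 6 libraries, and 15.7% and 27.2% by 2-fold. These counts hold for TPM as deposited and depended on the scaling. After median centring, described below, 37 large subunit rows that reached 1 TPM in all 6 libraries were higher and 7 lower. In the small subunit 17 and 7 such rows were so. Beside these stand 53.6% and 38.6% of the 5988 genes after centring. A difference between the subunits was not tested.

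**Figure D1:**
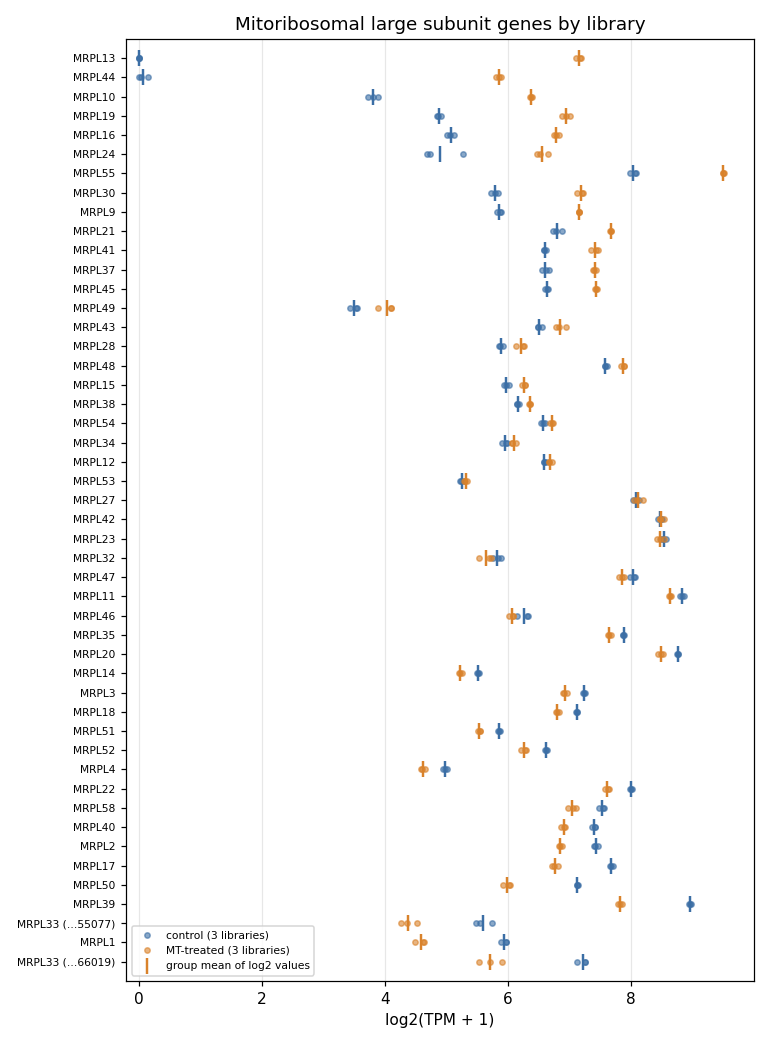
Levels of the 48 large subunit rows on the log2(TPM + 1) axis. Each dot is 1 library, blue for control and orange for MT-treated (3 each), short bars are group means, and rows run from the highest to the lowest fold change. MRPL13 and MRPL44 stand at or near 0 in control libraries, and the blue and orange dots lie close together in the middle of the order.

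MRPL10, which forms the base of the stalk where translation factors dock, rose most among large subunit genes above 0 in all 6 libraries. It stood at 13.0, 12.2 and 13.8 TPM in control libraries and at 82.3, 82.5 and 81.3 TPM in MT-treated libraries, a ratio of 6.31 (log2 fold change 2.57, SE 0.05, limma adjusted p = 1.42e-08). Each MT-treated library was far above each control library. MRPL19, a protein at the interface with the small subunit, was at 28.0, 29.1 and 27.8 TPM in control and at 128, 122 and 116 TPM in MT-treated libraries. MRPL16, which lies near the site where peptide bonds form, was at 32.4, 31.3 and 33.9 TPM in control and at 113, 107 and 109 TPM in MT-treated libraries. Both genes rose more than 3-fold and their groups lay wide apart.

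MRPL55 had the highest level of the large subunit in MT-treated libraries and ranked 7 in control. Its values were 268, 251 and 266 TPM in control libraries and 718, 717 and 729.6 TPM in MT-treated libraries (log2 fold change 1.46, SE 0.03, limma adjusted p = 1.69e-08). MRPL30 rose from 52.1, 54.4 and 56.4 to 148, 146 and 139 TPM. MRPL24, at the exit of the nascent peptide, was at 25.6, 24.9 and 37.8 TPM in control and 91.3, 99.4 and 88.2 TPM in MT-treated libraries. The third control library was higher than the other two for MRPL24, which gave it the largest coefficient of variation in control among the 70 rows that reached 1 TPM in all 6 libraries, 24.6%, and still lay under every MT-treated library. MRPL9 also passed 2-fold, at 55.5, 57.9 and 57.6 TPM in control and 141, 141 and 141 TPM in MT-treated libraries.

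Among the falls, MRPL33 was lower under both of its identifiers. ENSBTAG00000066019 was at 138, 152 and 152 TPM in control and 45.0, 51.4 and 58.5 TPM in MT-treated libraries, and ENSBTAG00000055077 at 43.8, 45.8 and 52.5 TPM in control and 18.1, 21.9 and 19.4 TPM in MT-treated libraries. Reads could be split between these entries, so their single levels are uncertain, and summed they were at 195 ± 11.6 TPM in control and 71.5 ± 7.59 TPM in MT-treated libraries (SD, n = 3). MRPL1, a protein of the flexible stalk beside the site where spent tRNAs leave, was at 58.2, 61.3 and 61.3 TPM in control and 21.4, 24.0 and 23.5 TPM in MT-treated libraries. It fell 2.62-fold, with no overlap (limma adjusted p = 4.48e-07).

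MRPL39 was the most abundant large subunit gene of control blastocysts. It stood at 503, 498 and 491 TPM in control and 226, 230.5 and 221 TPM in MT-treated libraries (log2 fold change -1.14, SE 0.02, limma adjusted p = 1.21e-08). MRPL50, found only in mitochondrial ribosomes, was at 138, 139 and 139 TPM in control and 59.6, 64.4 and 63.9 TPM in MT-treated libraries. MRPL17, a neighbour of the peptide exit, was at 202, 203 and 207 TPM in control and 112, 104 and 107 TPM in MT-treated libraries, just short of a 2-fold fall.

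Other abundant large subunit genes moved little. MRPL11, of the same factor-binding stalk as MRPL10, was at 462, 445 and 453 TPM in control and 397, 393 and 399 TPM in MT-treated libraries. MRPL20 was at 429, 435 and 435 TPM in control and 358, 345 and 368 TPM in MT-treated libraries. For both, every MT-treated library was below every control library, by 1.14-fold and 1.21-fold of the means.

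The 4 large subunit genes that did not pass overlapped between groups. All 4 were higher at an adjusted p under 0.05 after median centring, and MRPL42, MRPL27 and MRPL53 also after quantile normalization, scalings compared below. MRPL42 was at 357, 364 and 345 TPM in control and 369.6, 353 and 352 TPM in MT-treated libraries (limma adjusted p = 0.683). MRPL27 was at 271, 261 and 279 TPM in control and 292, 264 and 272 TPM in MT-treated libraries (limma adjusted p = 0.539). MRPL23, at the peptide exit, was at 358, 367 and 380.2 TPM in control and 352, 341 and 370.4 TPM in MT-treated libraries (limma adjusted p = 0.187). MRPL53, of the stalk base, was at 38.2, 36.4 and 36.8 TPM in control and 39.4, 38.2 and 38.5 TPM in MT-treated libraries (limma adjusted p = 0.095). MRPL12, which forms the flexible stalk itself, was nearly level and yet passed, at 94.7, 94.9 and 97.0 TPM in control and 101, 101 and 104 TPM in MT-treated libraries.

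The remaining large subunit genes changed by less than 2-fold. MRPL21, MRPL41, MRPL37, MRPL45, MRPL49, MRPL43, MRPL28, MRPL48, MRPL15, MRPL38, MRPL54 and MRPL34 rose by 0.14 to 0.87 on the log2 scale, and of these MRPL49 was lower under quantile normalization. MRPL32, MRPL47, MRPL46, MRPL35, MRPL14, MRPL3, MRPL18, MRPL51, MRPL52, MRPL4, MRPL22, MRPL58, MRPL40 and MRPL2 fell, with log2 fold changes of -0.58 to -0.18, and of these only MRPL2 was also lower at an adjusted p under 0.05 after median centring. MRPL32 lost its call when control replicate 1, control replicate 2 or MT-treated replicate 2 was left out (limma adjusted p = 0.0688, 0.0786 and 0.0513).

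Counts for genes that sit together in the large subunit depended on the scaling, as did those of all genes tested, with 61.6% higher and 34.1% lower as deposited and 70.4% and 25.4% after median centring. Every gene of the stalk, the peptide exit and the central protuberance reached 1 TPM in all 6 libraries. Among the 5988 genes that did so, 36.4% were higher and 55.6% lower as deposited, and 53.6% and 38.6% after centring. Of 5 genes of the factor-binding stalk, 3 were higher and 1 lower with TPM as deposited, and 5 were higher after median centring. Of 6 genes around the peptide exit, 2 were higher and 3 lower as deposited, and 5 and 1 after centring. Of 7 genes of the central protuberance, 3 were higher and 3 lower as deposited, and 6 and 0 after centring. Of 30 rows with a bacterial counterpart, 13 were higher and 15 lower as deposited, and 25 and 5 after centring. Of 18 rows found only in mitochondria, 9 were higher and 7 lower as deposited, and 14 and 2 after centring.

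**Figure D2:**
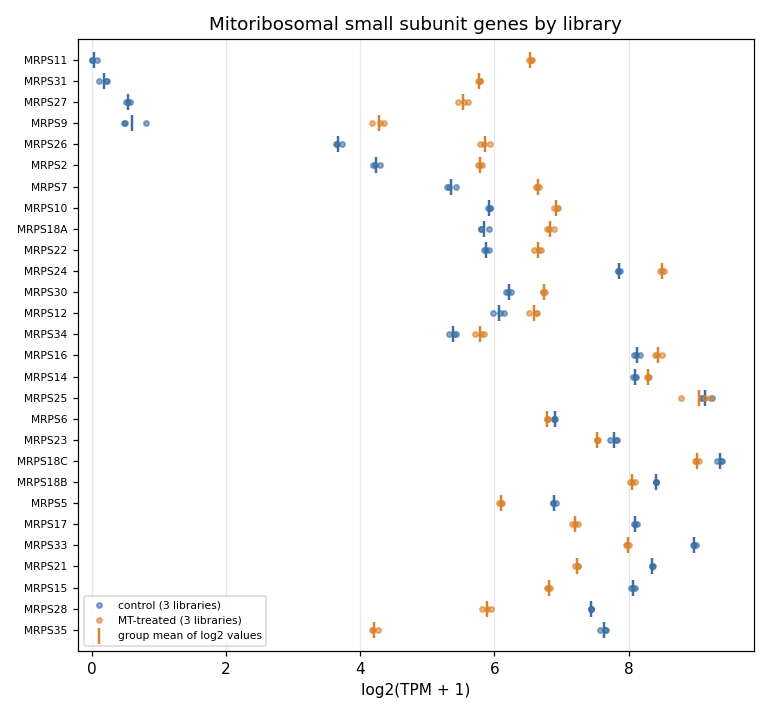
Levels of the 28 small subunit rows on the log2(TPM + 1) axis, drawn as for the large subunit, with 1 dot per library and short bars for group means. The 4 genes at the top lie under 1 TPM in every control library, and MRPS35 at the bottom shows the largest fall.

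The widest fall of any row was that of MRPS35, a protein found only in mitochondrial ribosomes. It stood at 202, 200.4 and 189 TPM in control and at 18.1, 17.2 and 17.1 TPM in MT-treated libraries, 11.3-fold lower (log2 fold change -3.42, SE 0.04, limma adjusted p = 1.77e-09). MRPS28 was at 172, 172 and 172 TPM in control libraries, which were nearly identical, and at 60.5, 58.1 and 55.5 TPM in MT-treated libraries. Every MT-treated library was far below the control range for both genes. MRPS15, whose bacterial counterpart binds early in assembly, was at 274, 261 and 267 TPM in control and 113, 109 and 111 TPM in MT-treated libraries.

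MRPS21 was at 329.5, 324 and 326 TPM in control and 146, 150.0 and 151 TPM in MT-treated libraries. MRPS33 was at 504, 497 and 513 TPM in control and 257, 249 and 250.2 TPM in MT-treated libraries, and MRPS17 at 270.5, 278 and 272 TPM in control and 147, 151 and 141 TPM in MT-treated libraries. These were among the abundant small subunit genes of control blastocysts, and their groups were separate. MRPS5, which lies near the entry of the mRNA, fell from 118 ± 2.04 to 67.5 ± 1.29 TPM (SD, n = 3).

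Upwards, MRPS26 was at 12.2, 11.6 and 11.4 TPM in control and 60.3, 54.2 and 56.4 TPM in MT-treated libraries (log2 fold change 2.18, SE 0.05, limma adjusted p = 3.83e-08). MRPS2 was at 17.7, 17.2 and 18.6 TPM in control and 53.9, 52.8 and 55.1 TPM in MT-treated libraries. MRPS7, of the head of the subunit, was at 38.3, 39.0 and 42.0 TPM in control and 101, 97.5 and 98.7 TPM in MT-treated libraries. No MT-treated library of these 3 genes reached down to the control values. MRPS12, a protein of the decoding site, rose less, from 66.1 ± 3.75 to 95.1 ± 4.31 TPM (SD, n = 3).

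The most abundant small subunit genes were MRPS18C and MRPS25. MRPS18C was at 665, 637 and 671 TPM in control and 508, 527 and 512 TPM in MT-treated libraries, and fell 1.27-fold. MRPS25 was at 605, 539 and 549 TPM in control and 440.0, 560.3 and 592 TPM in MT-treated libraries and did not pass (limma adjusted p = 0.441), with its first MT-treated library below the other two. MRPS16 rose from 269.9, 276 and 288 to 362, 343 and 335 TPM.

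Further small subunit genes lay close to a log2 fold change of 0. MRPS6 was at 118, 119 and 118 TPM in control and 109.7, 109 and 111 TPM in MT-treated libraries. MRPS14 was at 275, 268 and 274 TPM in control and 315, 311 and 309 TPM in MT-treated libraries, and MRPS23 at 226, 223 and 209 TPM in control and 183, 183 and 185 TPM in MT-treated libraries. Their groups did not overlap, although the differences were small. The remaining genes MRPS10, MRPS18A, MRPS22, MRPS24, MRPS30 and MRPS34 rose, with log2 fold changes of 0.40 to 0.99, and MRPS18B fell, with -0.35. After median centring MRPS6, MRPS23, MRPS18B and MRPS18C were higher at an adjusted p under 0.05. Of 16 small subunit genes with a bacterial counterpart, 9 were higher and 7 lower as deposited, and 11 and 5 after median centring. Of 12 found only in mitochondria, 7 were higher and 4 lower as deposited, and 10 and 2 after centring, beside the same shares of all genes tested, 61.6% and 34.1% as deposited and 70.4% and 25.4% after centring.

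A small set of genes was nearly missing from control libraries. Under 1 TPM in every control library and at 1 TPM or more in every MT-treated library were 6 rows, 7.89% beside 42.5% of all genes tested, and the reverse held for 0 rows, beside 5.53% of all genes tested. These 6 passed the filter through the MT-treated group alone and so had to differ. Among the 8635 tested genes with a mean of at least 10 TPM in either group, 30.2% were under 1 TPM in every control library and 4.74% in every MT-treated library. At 1 TPM or more in all 6 libraries were 70 rows, 92.1%, beside 50.1% of all genes tested.

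MRPL13 was listed at 0 in all 3 control libraries and at 137, 142 and 144 TPM in MT-treated libraries, and no fold is given. MRPS31 was at 0.16, 0.08 and 0.17 TPM in control and 54.1, 53.3 and 53.9 TPM in MT-treated libraries. MRPS27, an RNA-binding protein with pentatricopeptide repeats, was at 0.43, 0.46 and 0.48 TPM in control and 47.7, 45.8 and 42.8 TPM in MT-treated libraries. MRPS9 was at 0.75, 0.39 and 0.41 TPM in control and 19.5, 17.1 and 18.6 TPM in MT-treated libraries. The median level in MT-treated libraries was 111.6 TPM over large and 107.6 TPM over small subunit rows, so MRPL13 lay above the middle of its subunit there and MRPS31, MRPS27 and MRPS9 below it.

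MRPL44 and MRPS11 were picked out after their values were seen. MRPL44, which carries a ribonuclease-like fold, was at 0, 0.03 and 0.11 TPM in control and 55.1, 56.6 and 58.1 TPM in MT-treated libraries. MRPS11 was at 0, 0.06 and 0 TPM in control and 93.2, 90.1 and 92.5 TPM in MT-treated libraries. MRPS11 lies beside MRPL46 in the RefSeq annotation, the only neighbouring pair among the 75 symbols, and MRPL46 was at 69.9, 77.9 and 79.4 TPM in control and 66.9, 63.8 and 66.6 TPM in MT-treated libraries. MRPL46 thus differed little between the groups, in contrast to its neighbour.

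**Figure D3:**
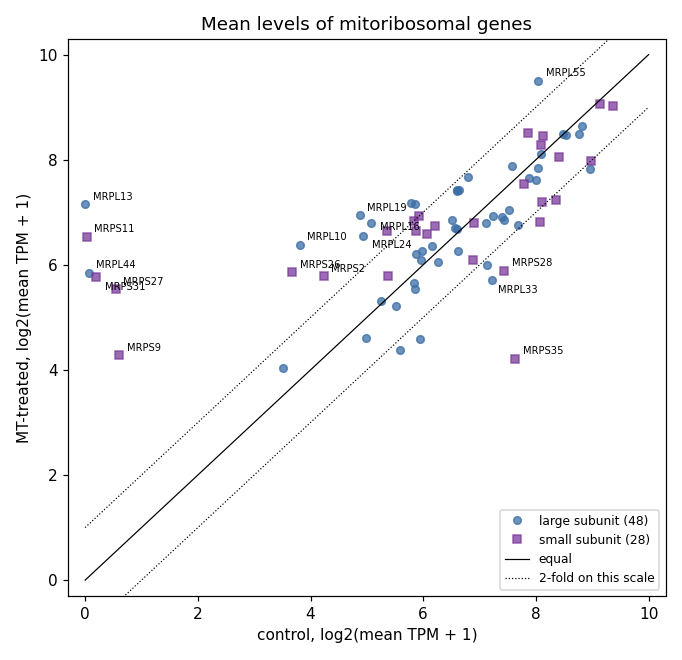
Mean level of each row in control (x axis) and MT-treated blastocysts (y axis), both as log2(mean TPM + 1), with large subunit rows as circles and small subunit rows as squares. The solid line marks equal means and the dotted lines 2-fold. The 6 rows at the left edge are those under 1 TPM in every control library, and MRPS35 lies farthest below the lower dotted line.

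Summed over its rows, the large subunit was at 6542 ± 41.2 TPM in control and 6976 ± 44.9 TPM in MT-treated libraries (SD, n = 3). The small subunit was at 4962 ± 58.8 and 4433 ± 55.4 TPM. With TPM as deposited, the large subunit sum was thus higher and the small subunit sum lower in MT-treated blastocysts, and the ratio of large to small went from 1.32 ± 0.0132 to 1.57 ± 0.0239. Sums were not computed after median centring, described below, which raises MT-treated levels relative to control. The direction of the small subunit sum under that scaling is therefore not given. MRPL55, whose gene model overlaps that of GUK1, alone added 459.9 TPM. Without it the large subunit sums were 6281 ± 35.3 and 6254 ± 42.4 TPM, and the ratio 1.27 and 1.41. No test is given for these sums.

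Over the 12 small subunit rows with a lower mean the sum of the differences was -1350.5 TPM, with -252 TPM from MRPS33, -179.6 TPM from MRPS35 and -177 TPM from MRPS21. The 16 rows with a higher mean gained 822 TPM, of which MRPS24 gave 131 TPM. MRPS30 and MRPS18A carry small subunit symbols but sit in the large subunit of the known structure, and counting them there gave ratios of 1.38 and 1.71.

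The SD of log2(TPM + 1) across small subunit rows was 2.79 in control and 1.25 in MT-treated libraries (means of 3), and across large subunit rows 1.84 and 1.17. Much of this difference came from the 6 rows under 1 TPM in control libraries, which had to widen the control spread. Without them the SD was 1.53 in control and 1.17 in MT-treated libraries for the small subunit and 1.29 and 1.18 for the large subunit.

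Because the groups differ over so many genes, the fold changes were also computed under other scalings. Centring each library on the median of genes present in all 6 libraries moved every fold change up by 0.48 on the log2 scale. Then 60 rows were higher and 14 lower, beside 70.4% and 25.4% of all genes tested. Quantile normalization gave 41 higher and 24 lower, beside 46.4% and 44.4% of all genes tested. Of the 70 rows that reached 1 TPM in all 6 libraries, centring gave 54 higher and 14 lower (77.1% and 20.0%), beside 53.6% and 38.6% of the 5988 genes. There quantile normalization gave 35 and 24 (50.0% and 34.3%), beside 33.2% and 59.2%. By 2-fold, centring gave 26 of the 76 rows higher and 3 lower (34.2% and 3.9%), beside 55.7% and 14.3% of all genes tested. Quantile normalization gave 23 and 6 by 2-fold (30.3% and 7.9%), beside 25.8% and 26.0%. Under the TPM as deposited, TPM rescaled to the same listed total, centring and quantile normalization alike, 21 large subunit rows and 16 small subunit rows were higher, beside 44.0% of all genes tested. These include the 2 large and 4 small subunit rows under 1 TPM in every control library, which passed the filter through the MT-treated group alone. Such genes made up 42.5% of all genes tested, and shares without them were not computed for all 4 scalings together. Lower under all 4 were 7 large and 7 small subunit rows, beside 25.4%.

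The call of the other 25 rows, 20 of the large and 5 of the small subunit, depended on the scaling. The large subunit rows lower throughout were MRPL1, MRPL2, MRPL17, MRPL39, MRPL50 and both MRPL33 entries. The small subunit rows lower throughout were MRPS5, MRPS15, MRPS17, MRPS21, MRPS28, MRPS33 and MRPS35. MRPL11, MRPL20, MRPL23, MRPS18C and MRPS25 were among those whose direction changed.

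**Figure D4:**
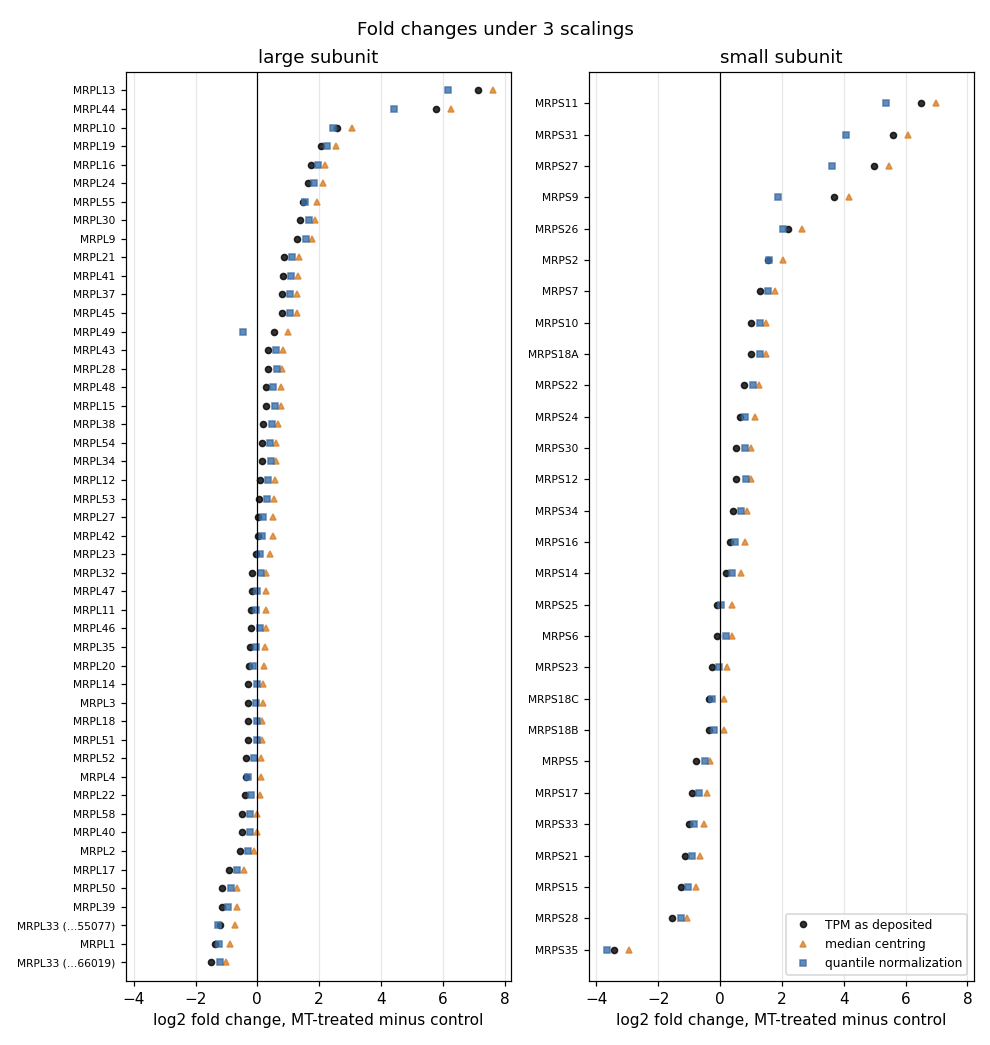
Log2 fold change (MT-treated minus control) of each row with TPM as deposited (black circles), after median centring (orange triangles) and after quantile normalization (blue squares), for the large (left) and small (right) subunit. Rows in the middle of each panel cross 0 between scalings, whereas MRPS35, MRPS28 and MRPL1 stay below 0 and MRPL10 and MRPS26 above it.

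The list of other genes held 5 ribosomal proteins under other symbols and OXA1L, which binds the ribosome but is not a subunit. Of these 6, 3 rose and 3 fell, beside 61.6% and 34.1% of all genes tested. OXA1L, at under 1 TPM in every control library, passed the filter through the MT-treated group alone. This insertase, which receives new proteins at the inner membrane, was at 0.35, 0.14 and 0.47 TPM in control and 76.6, 76.5 and 74.2 TPM in MT-treated libraries. CHCHD1, a small subunit protein, fell from 424 ± 6.88 to 153 ± 6.68 TPM (SD, n = 3), and PTCD3 fell from 33.9 to 21.9 TPM. DAP3, a GTP-binding small subunit protein, rose from 50.2 to 69.7 TPM and AURKAIP1 from 157 to 190.2 TPM. GADD45GIP1 fell from 44.5 to 32.8 TPM and did not pass after centring.

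Assembly and rRNA modification factors were listed for 31 genes, of which 30 were tested. Of these 11 rose, 18 fell and 1 did not pass, against 14 and 14 after centring and 8 and 22 after quantile normalization. Of all genes tested, 61.6% were higher and 34.1% lower as deposited, 70.4% and 25.4% after centring, and 46.4% and 44.4% after quantile normalization. Of the 11 assembly factors that rose, 8 were listed at 0 in every control library and passed the filter through the MT-treated group alone. TFB1M, which methylates the small subunit rRNA, was at 86.0, 87.9 and 86.4 TPM in control and 7.86, 8.56 and 8.95 TPM in MT-treated libraries (log2 fold change -3.22, SE 0.05, limma adjusted p = 5.60e-09). FASTKD2, an RNA-binding protein of large subunit assembly, was at 65.4, 65.6 and 62.0 TPM in control and 9.97, 9.87 and 9.97 TPM in MT-treated libraries. The groups of both were far apart. GTPBP10, a GTPase of large subunit assembly, fell from 77.0 to 16.1 TPM, and SPG7, a subunit of an inner membrane protease, from 21.2 to 5.89 TPM.

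Other assembly factors were listed at 0 in all 3 control libraries. METTL15, which methylates the small subunit rRNA, was at 23.3, 25.2 and 25.2 TPM in MT-treated libraries, and MRM2, a methyltransferase of the large subunit rRNA, at 21.8, 20.7 and 21.3 TPM. MTG2, a GTPase of large subunit assembly, was at 12.9, 13.2 and 13.8 TPM. MIEF1, which codes for a mitochondrial fission receptor and, in an upstream reading frame, for a small assembly protein, was at 10.9, 11.2 and 10.8 TPM. The products of MIEF1 cannot be told apart here. Below 10 TPM and likewise at 0 in control libraries were NSUN4 with a mean of 6.66 TPM, DHX30 with 5.21 TPM, TRUB2 with 2.18 TPM, TRMT61B with 1.85 TPM and MRM3, which was not tested, with 1.03 TPM. TRUB2 and TRMT61B were lower under quantile normalization. RPUSD3, a pseudouridine synthase family member, rose from 7.48 to 53.4 TPM.

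Translation factors of mitochondria were listed for 16 genes. Of 14 tested, 7 rose and 7 fell, against 8 and 4 after centring and 7 and 6 after quantile normalization, beside the shares of all genes tested given for the assembly factors. Of the 7 that rose, MRRF, TSFM, GUF1 and GFM1 were under 1 TPM in every control library and likewise passed through the MT-treated group alone. GFM2, which splits the ribosome after translation, was at 70.3, 71.7 and 68.4 TPM in control and 2.40, 2.23 and 2.83 TPM in MT-treated libraries (log2 fold change -4.35, SE 0.07, limma adjusted p = 7.25e-09). MRRF, its partner in ribosome recycling, was at 0, 0 and 0.04 TPM in control and 101, 101 and 103 TPM in MT-treated libraries. The recycling partners thus lay at opposite ends of the list. GFM1, the elongation factor that moves the ribosome along, was at 0.24, 0.28 and 0.18 TPM in control and 21.4, 23.4 and 22.3 TPM in MT-treated libraries.

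TSFM, which recharges the elongation factor TUFM, was at 0.04, 0.12 and 0.12 TPM in control and 85.9, 86.1 and 86.1 TPM in MT-treated libraries. MTIF2, an initiation factor, was at 48.1, 47.9 and 51.6 TPM in control and 6.56, 8.08 and 6.22 TPM in MT-treated libraries. MTIF3, also an initiation factor, fell from 30.6 to 15.3 TPM and MTRFR, a rescue factor, from 26.7 to 16.5 TPM. GUF1 was listed at 0 in all 3 control libraries and at 23.4, 23.1 and 23.5 TPM in MT-treated libraries. TACO1 and MTRF1 were listed at 0 in all 6 libraries. LRPPRC, which binds mitochondrial mRNAs, rose from 41.6 to 81.0 TPM.

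**Figure D5:**
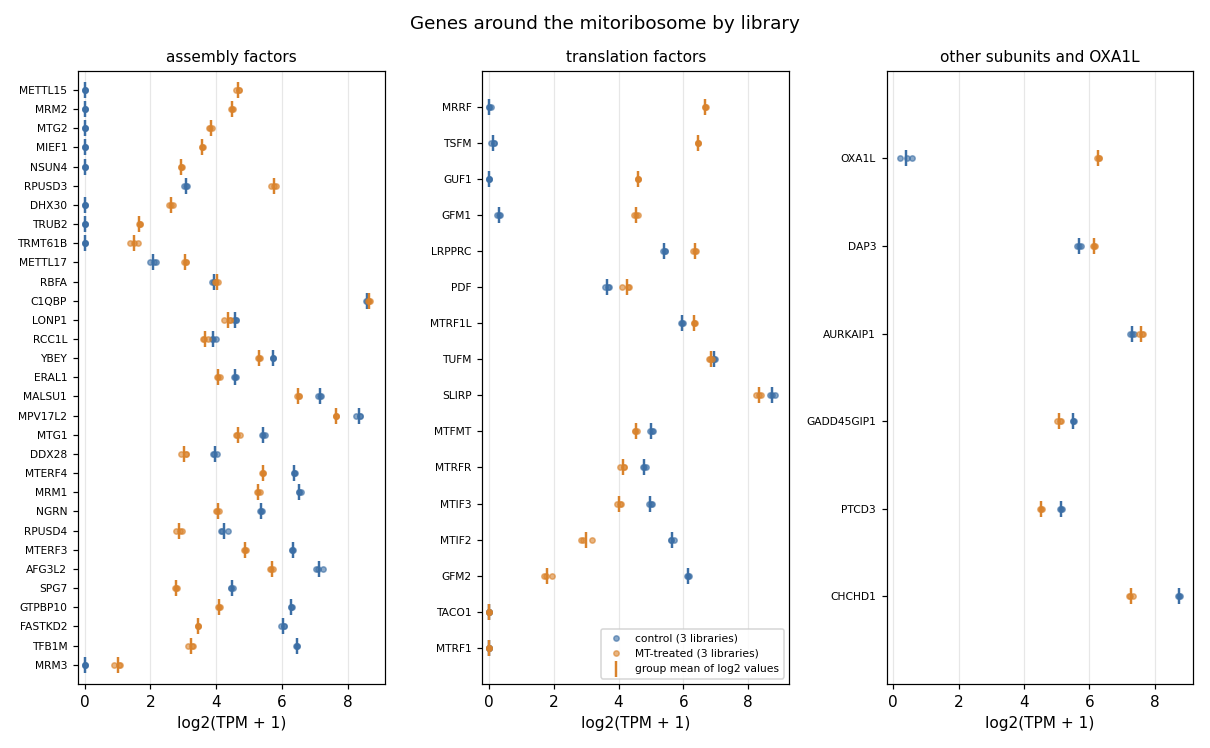
Levels of assembly factors (left), translation factors (middle) and ribosomal proteins under other symbols with OXA1L (right) on the log2(TPM + 1) axis, with 1 dot per library (blue control, orange MT-treated) and short bars for group means. Several assembly and translation factors, and OXA1L, stand at or near 0 in control libraries, and TFB1M, GFM2 and MTIF2 show the opposite order.

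In the RefSeq annotation, the models of 14 of the 75 symbols overlapped another protein-coding gene, so reads there could be assigned to either gene and these values are uncertain. They include MRPL55 with GUK1, MRPL16 with STX3, MRPL30 with MITD1, MRPS18C with ABRAXAS1, MRPS7 with MIF4GD, MRPS6 with SLC5A3 and MRPS35 with REP15. GUK1 rose too, from 29.5, 28.0 and 28.1 to 119, 116 and 122 TPM. MITD1 rose from 1.0, 0.8 and 1.05 to 20.9, 19.5 and 20.9 TPM, and MIF4GD from 0.52, 0.67 and 0.65 to 19.1, 12.1 and 13.8 TPM. ABRAXAS1 fell, as MRPS18C did. STX3 fell from 29.0, 29.5 and 28.3 to 16.95, 14.5 and 16.9 TPM, whereas MRPL16 rose. REP15 was at 0 throughout, and SLC5A3 had no values. Sharing of reads was not tested. Of the 6 symbols under 1 TPM in control libraries, 1 overlapped another gene, and of the other 69, 13 did.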

How the data were processed

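RNA of 3 control and 3 MT-treated pools of bovine blastocysts was sequenced. The authors deposited 1 table of TPM per gene. Per the submitters' processing notes, FastQC 0.11.9, STAR 2.7.9a, featureCounts of Subread 1.6.3, DESeq2 and the build ARS-UCD1.2 were used, and how TPM were calculated is not given in the sources used here. Library preparation and the ARS-UCD release are described differently in the labels and the study's methods. TPM keeps no depth, so no counting interval is given. Genes with at least 1 TPM in at least 3 libraries were fitted on log2(TPM + 1) with limma 3.58.1 (R 4.3.3, eBayes with trend), with Benjamini-Hochberg adjustment over 11953 genes. The pseudocount understates changes of low genes. The code was tested on simulated data. Tables and plots were made with Python 3.11.15, pandas 2.3.3, numpy 2.4.6 and matplotlib 3.10.9. Overlaps and neighbours came from RefSeq gene models of ARS-UCD2.0, matched by symbol for 75 of 75. Members and lists were chosen with earlier results of these data known.

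Values per library were given for members at 0 throughout 1 group, the 6 highest and 6 lowest fold changes per subunit among members above 0 in all 6 libraries, the 4 highest means, the 5 fold changes nearest 0, members that did not pass and symbols with several identifiers. From related lists, genes at 0 throughout 1 group with at least 10 TPM in the other were named, with the 4 highest and 4 lowest of the rest. Alternatives covered scaling, pseudocount, filter, prior variance, rows entering the fit, a replicate block and each library left out. Planned descriptions of promoters and protein lengths were not made. Per the study's methods, the replicates of each group came from independent production runs, and oocytes of a run were pooled and divided among treatments. The labels do not tell whether equal numbers mark the same run. Same-numbered libraries did not deviate together (correlations -0.01, -0.0007 and 0.06), so the numbers were not treated as pairs, and any pairing by run was left out of the fit.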

Additional observations from a re-analysis of the deposited data

How the results depend on the processing

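The pseudocount, the filters on low values, the prior variance and the restriction to rows with a symbol changed no call of the 76 rows. The replicate block changed no call either, with 22 large subunit rows higher and 22 lower, and 16 and 11 small subunit rows. Centring gave 39 large subunit rows higher (14 by 2-fold) and 7 lower (1 by 2-fold), and in the small subunit 12 higher by 2-fold and 7 lower (2 by 2-fold). It left 4 translation factors lower. Quantile normalization left 3 large subunit rows lower by 2-fold. Fitting genes above 0 in all 6 libraries alone, chosen after seeing the data, left 3 assembly factors higher, since fewer genes entered. With listed TPM rescaled to the same total, the large subunit sums were 6980.2 and 7638 TPM in control and MT-treated libraries and the small subunit sums 5293.6 and 4854 TPM. Without the row at 0 in control libraries the MT-treated large subunit sum was 6834 TPM. The fitted log2 fold change changed sign for the genes given next, and the cause was not tested. After centring it was MRPL23 0.42, MRPL32 0.29, MRPL18 0.16, MRPL4 0.11, MRPL47 0.29, MRPL35 0.25, MRPL20 0.20, MRPS18B 0.12, MRPS23 0.23, MRPS6 0.37, MRPS25 0.38, MRPL51 0.16, MRPL52 0.12, MRPS18C 0.13, MRPL22 0.095, MRPL46 0.28, MRPL3 0.17, MRPL14 0.19, MRPL11 0.29, GADD45GIP1 0.0496, LONP1 0.26, YBEY 0.0478, RCC1L 0.23, SLIRP 0.0622, TUFM 0.37, MTFMT 0.0002. After quantile normalization it was MRPL23 0.0807, MRPL32 0.13, MRPL49 -0.47, MRPS6 0.18, MRPS25 0.0335, MRPL46 0.0906, TRUB2 -0.28, METTL17 -1.46, RBFA -0.80, TRMT61B -0.36, PDF -0.0587, TUFM 0.17. Of the genes with a changed sign, GADD45GIP1, YBEY, SLIRP and MTFMT did not pass after centring, and MRPL23, MRPL32, MRPS25, MRPL46 and PDF did not pass after quantile normalization. Calls were lost without a change of sign for MRPL58, MRPL40 and ERAL1 after centring, and for MRPL47, MRPL35, MRPL14, MRPL3, MRPL18, MRPL51 and MRPS23 after quantile normalization. Calls were gained without a change of sign for MRPL53, MRPL27 and MRPL42 after centring and after quantile normalization, and for RBFA after centring. Leaving out each library in turn moved the log2 fold change of 3 genes that did not pass across 0. It ranged from -0.0101 (without MT-treated replicate 1) to 0.029 for MRPL42, which was also negative without control replicate 3, from -0.0128 (without MT-treated replicate 1) to 0.0605 for MRPL27, and from -0.183 to 0.0304 (without MT-treated replicate 1) for MRPS25. MRPL23 passed without MT-treated replicate 3 (limma adjusted p = 0.0482) and MRPL53 without control replicate 1 (limma adjusted p = 0.0479). TPM keep no depth, so how far low values are limited by sequencing could not be given.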
